A study of Mus musculus with 42 samples.

Results

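Pax genes encode transcription factors that bind DNA through a paired domain. They were followed here through the differentiation of mouse embryonic stem cells (mESCs) into anterior definitive endoderm (ADE), and after inhibition of the histone methyltransferase of PRC2. The 8 genes were Pax1, Pax2, Pax3, Pax5, Pax6, Pax7, Pax8 and Pax9, out of 21308 genes on the array. They were chosen by name, as the genes whose RefSeq accession is carried by an array probe, and each was read at the probe with the highest mean over all 42 arrays. In all 13 probes stood for them, with 2 probes for 5 of the genes and 1 probe for the other 3. The Pax1 probe was printed at 10 spots of each array and the Pax6 probe at 2 spots, and the other brightest probes at 1.

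All cells came from 1 mESC line with 2 reporters, GFP at Gsc and RedStar at Hhex, so that no result was repeated in another line. RNA was measured on Agilent 1-colour arrays with 3 arrays for each of 14 groups. Of these, 11 were untreated: ESC, unsorted cells of d2, cells sorted by GSC on d3 and d4 (G- and G+) and on d5 (G-, Glow and Ghigh), and the d6 populations with high GSC that lacked or carried HHEX (G+H- and G+H+). The other 3 were d6 cultures of a separate series whose labels name no sort: Control was kept in DMSO, ADE_EPZ received DMSO as ESCs and 2.5 uM EPZ6438 during differentiation, and ES_EPZ received EPZ6438 as ESCs and DMSO during differentiation. The target of EPZ6438 is EZH2, the enzyme of PRC2 that places the repressive mark H3K27me3.

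Pax proteins act in the specification of organs and cell types in the embryo. Pax1 and Pax9 mark the pharyngeal endoderm and the sclerotome, Pax3 and Pax7 the dorsal neural tube, neural crest and muscle progenitors, Pax2, Pax5 and Pax8 the midbrain-hindbrain boundary, kidney, B cells and thyroid, and Pax6 the eye, forebrain and pancreas. Many genes of this kind are covered by H3K27me3 in mESCs.

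The group labels were checked against genes that define these cells. In ESC the stem cell factor Pou5f1 had a mean log2 intensity of 13.66 and in d6 G+H+ cells 7.75, while the endoderm regulator Sox17 had 5.10 and 12.67 and was not above background on any ESC array. Gsc, the gene of the GFP reporter, was not above background in ESC (5.04) and had a level of 13.41 in d6 G+H+ cells. The scanner software marked 25880 to 40388 probes per array as well above background in the untreated series and 24441 to 34783 in the EPZ6438 series. Most of the Pax genes were so marked on few arrays. Pax3 was above background on 42 of 42 arrays, Pax2 on 37 and Pax7 on 28, while Pax9, Pax8, Pax5, Pax6 and Pax1 were so on 11, 10, 10, 8 and 8. A change of a gene near background is understated on this scale. Replicates 1 and 2 of the untreated groups shared 3 slides and replicate 3 had 2 slides of its own, and each of the 3 slides of the EPZ6438 series held 1 array of every regimen. In d2, d3 G-, d3 G+, d4 G- and d5 G-, replicate 3 had 37541 to 39599 marked probes, against 25880 to 31694 in replicates 1 and 2. In the other untreated groups replicate 3, on the same 2 slides, had 30544 (ESC) to 34788 (d5 Ghigh). The array with 40388 was replicate 1 of d5 Ghigh. The marks thus differ between replicates in some groups, and the part of the slides in this was not tested.

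For 4 genes whose highest levels in the untreated groups lay at its start or end, the stretch of 250 bases upstream of the RefSeq start is shown. Pax6 and Pax8 had their highest mean at d2, and Pax7 and Pax9 in d6 G+H+ cells. Coordinates are of GRCm38.p6, whereas the array annotation is of mm9, and they are given for the sequence only. The RefSeq table held promoters of 7 of the 8 genes. It held none of Pax3, whose highest mean in the untreated groups also lay in d6 G+H+ cells (8.07). The stretches lie at chr2:105668646-105668895 on the plus strand (Pax6, the first of 2 starts), chr2:24475600-24475849 on the minus strand (Pax8), chr4:139832969-139833218 on the minus strand (Pax7) and chr12:56695221-56695470 on the plus strand (Pax9). Each is written 5′ to 3′, and capitals mark CpG dinucleotides, in which stretches bound by PRC2 are often rich.
Pax6: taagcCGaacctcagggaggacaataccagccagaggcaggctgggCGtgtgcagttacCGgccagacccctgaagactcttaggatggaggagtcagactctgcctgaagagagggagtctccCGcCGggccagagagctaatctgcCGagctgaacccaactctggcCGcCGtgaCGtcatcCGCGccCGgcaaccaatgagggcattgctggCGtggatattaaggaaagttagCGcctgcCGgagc
Pax8: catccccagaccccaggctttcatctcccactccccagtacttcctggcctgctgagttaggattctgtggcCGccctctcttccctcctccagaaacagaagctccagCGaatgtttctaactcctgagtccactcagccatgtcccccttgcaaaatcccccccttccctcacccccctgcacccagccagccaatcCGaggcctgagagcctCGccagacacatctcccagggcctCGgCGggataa
Pax7: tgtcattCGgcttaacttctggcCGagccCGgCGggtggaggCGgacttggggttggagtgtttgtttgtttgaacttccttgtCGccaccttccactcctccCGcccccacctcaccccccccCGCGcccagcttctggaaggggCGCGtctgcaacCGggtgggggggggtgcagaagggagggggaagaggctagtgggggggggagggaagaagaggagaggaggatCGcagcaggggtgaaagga
Pax9: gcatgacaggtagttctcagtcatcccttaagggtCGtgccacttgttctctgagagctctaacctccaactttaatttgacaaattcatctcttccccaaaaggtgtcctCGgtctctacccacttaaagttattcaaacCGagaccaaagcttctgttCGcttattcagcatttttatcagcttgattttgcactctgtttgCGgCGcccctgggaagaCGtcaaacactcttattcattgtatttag
The Pax6 stretch holds 15 CpG and that of Pax7 13, against 6 in that of Pax8 and 7 in that of Pax9, and 27.3%, 31.5%, 50.4% and 46.3% of the 32851 promoters in the table hold at least as many. The CCAAT letters, on either strand, stand in those of Pax6 and Pax8 and in 33.8% of all promoters, and GGGCGG in those of Pax7 and Pax8 and in 32.7%. None of the 4 holds TATAAA, which stands in 12.4% of all promoters. Nor do they hold the TAATCC letters, found in 6.25% of all promoters, or TGTTTAC, found in 3.17%.

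A gene was called where limma's adjusted p was at most 0.01 and the log2 fold change at least 1.5 in size. Over 19 comparisons this gave 12 calls in the Pax genes, for 4 of the 8: Pax6 was called in 8 comparisons, Pax7 in 2, and Pax3 and Pax9 in 1 each. Pax1, Pax2, Pax5 and Pax8 were called in none. The calls of Pax6 and Pax7 all used the same ESC arrays as reference and are not independent of each other. The share of all genes called in at least 1 of the 19 comparisons was not computed, so 4 of 8 has no share beside it. Shares are given below for single comparisons. The plot of values by array shows all 8 genes.

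**Figure D1:**
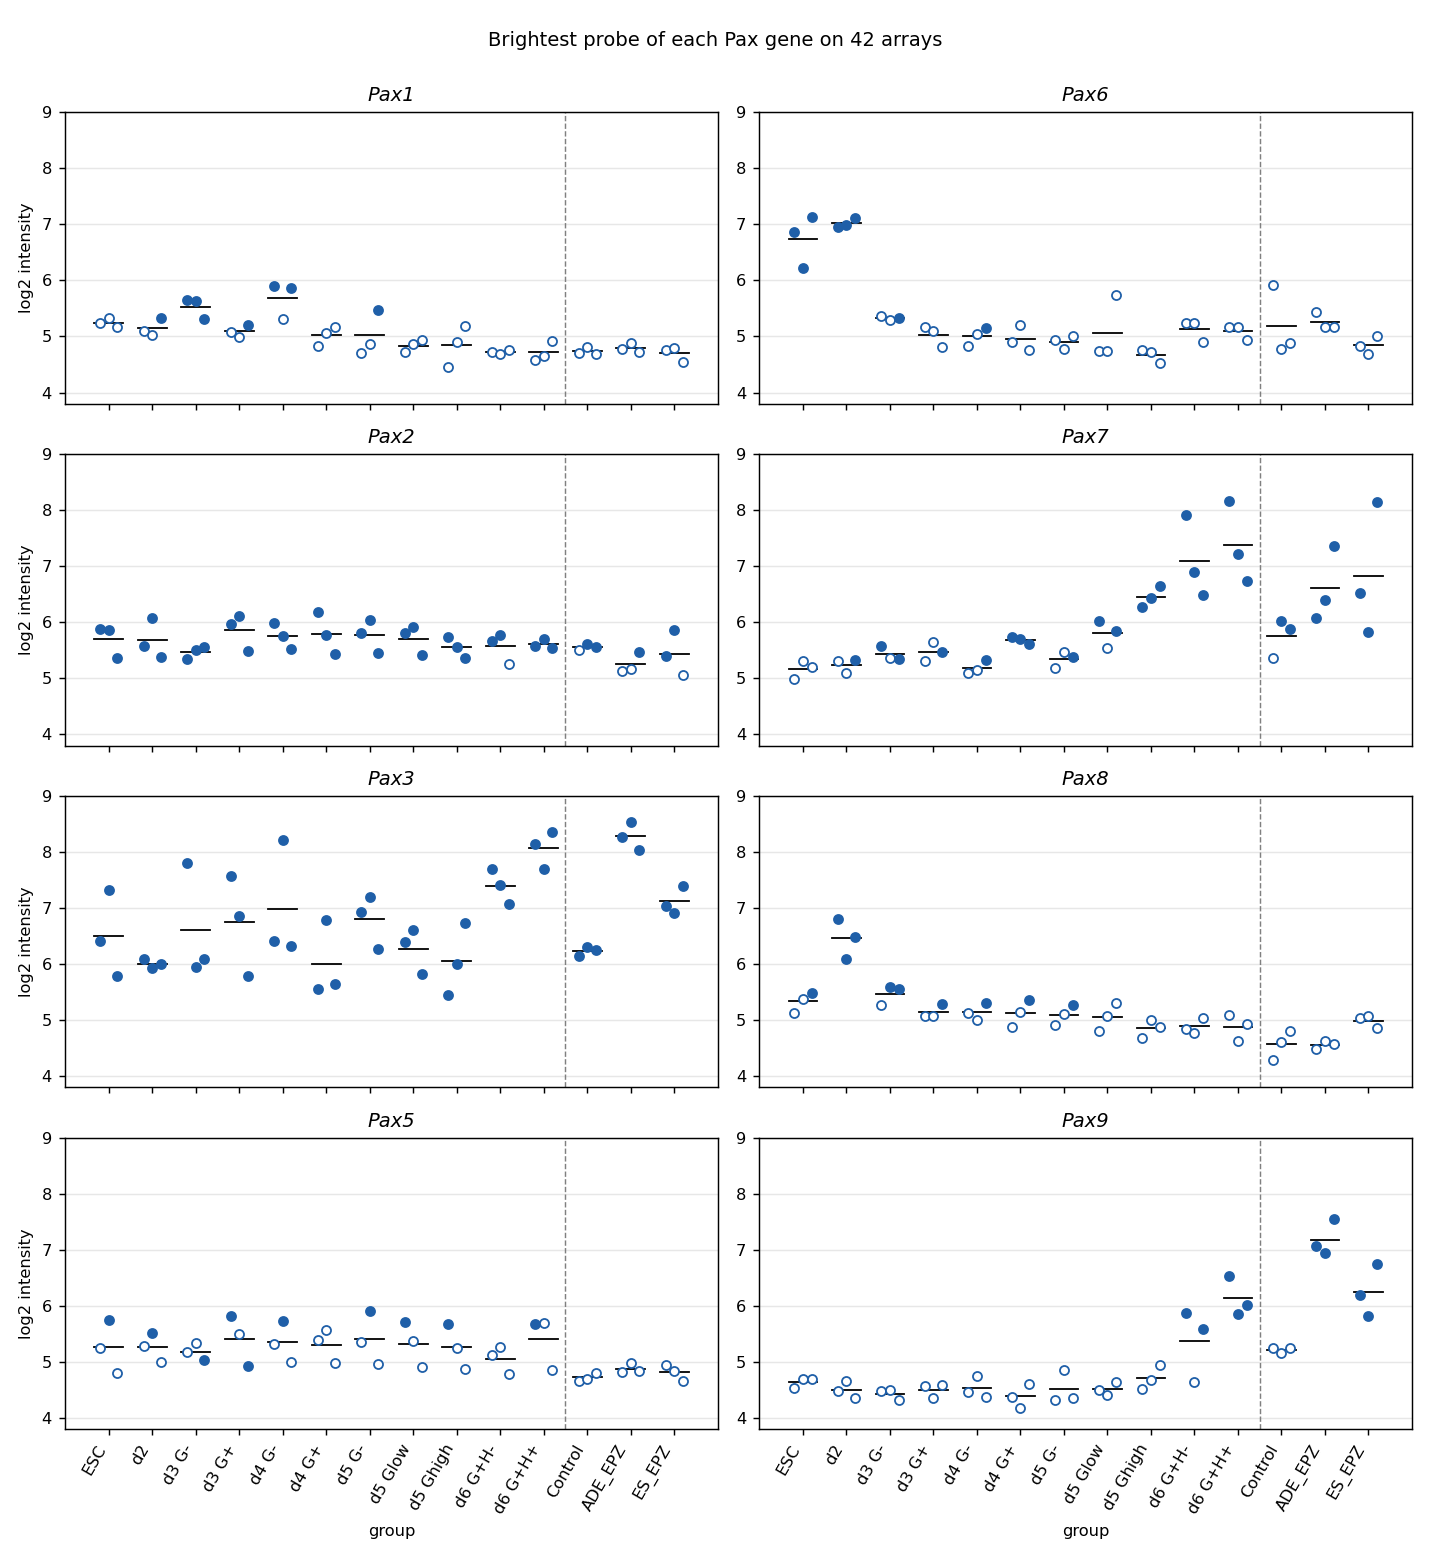
Log2 intensity (vertical axis) of the brightest probe of each Pax gene on every array of the 14 groups (horizontal axis), with replicates 1 to 3 from left to right, filled points where the probe was well above background and open points where it was not, and lines at the group mean. The dashed line divides the untreated groups from the EPZ6438 series. Pax6 is filled in ESC and at d2 with values from 6.22 to 7.14, Pax8 peaks at d2 and Pax7 climbs from d4 G+ to d6. Pax9 is filled on 2 of 3 d6 G+H- arrays and on all arrays of d6 G+H+ and both EPZ6438 regimens.

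Pax6, a regulator of eye, forebrain and pancreas development, was high before germ layers formed and fell at d3. Its log2 intensity was 6.86, 6.22 and 7.14 on the 3 ESC arrays and 6.96, 6.99 and 7.11 on the d2 arrays, all above background. At d3 it was 5.36, 5.29 and 5.33 in G- cells, with 1 array (replicate 3) above background, and 5.17, 5.09 and 4.81 in G+ cells, with none. No d3 array reached the values of ESC or d2. As RNA was measured in bulk, fewer cells that express a gene and less RNA per cell cannot be told apart. From d4 to d6 the group means lay between 4.67 (d5 Ghigh) and 5.13 (d6 G+H-). Compared with ESC (6.74 ± 0.468, SD, n = 3), Pax6 was called lower in 8 of 10 groups, by 3.06-fold to 4.19-fold, and limma's adjusted p ran from 1.6e-08 to 1.68e-06. In 7 of these groups no array was above background, so that the decreases there are at least 2.74-fold to at least 3.90-fold.

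Pax6 was the only Pax gene called lower in any comparison with ESC. Beside this 1 of 8, the share of all genes called lower was 3.58% in d3 G+, 1.72% in d4 G-, 4.29% in d4 G+, 2.17% in d5 G-, 4.17% in d5 Glow, 4.54% in d5 Ghigh, 5.06% for G+H- and 5.29% for G+H+ cells of d6. In d3 G- cells its log2 fold change against ESC was -1.41 (SE 0.233, limma adjusted p = 6.54e-05), below the size needed for a call, and 0 of 8 Pax genes and 2.41% of all genes were called there. At an unadjusted p under 0.05 these were 1 of 8 and 27.5%. Against d2, in 2 comparisons added after the levels were seen, Pax6 was called lower in d3 G- (-1.69, limma adjusted p = 1.14e-05) and in d3 G+ cells (-1.99, limma adjusted p = 6.77e-08), where 0.263% and 2.65% of all genes were called lower. The second Pax6 probe was not above background in ESC or at d2 (4.75 and 4.92), so the decrease rests on 1 probe. With a normexp offset of 50, or with no background correction, the Pax6 decreases against ESC were smaller than 1.5 in all 8 groups, and every one kept a limma adjusted p of at most 0.01. Without ESC replicate 3 the log2 fold change was -1.47 for d5 Glow, -1.41 for d6 G+H- and -1.45 for d6 G+H+ cells, too small for a call. The d6 G+H- decrease was also just under that size without replicate 3 of its own group.

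Pax8, which acts in thyroid and kidney development, peaked at d2. The 3 d2 arrays read 6.80, 6.09 and 6.49, against 5.13, 5.38 and 5.49 in ESC, and the groups did not overlap. The log2 fold change was 1.12 (SE 0.170, limma adjusted p = 2.73e-05), too small for a call. No Pax gene was called at d2 against ESC, and 1.69% of all genes were. At an unadjusted p under 0.05 limma gave 1 of 8 Pax genes and 22.5% of all genes. By d3 Pax8 was lower again, at 5.26, 5.59 and 5.56 in G- and 5.08, 5.07 and 5.30 in G+ cells. Against d2 it differed by -0.99 in G- (limma adjusted p = 0.000267) and by -1.31 in G+ cells (limma adjusted p = 4.73e-07), and neither passed the size for a call. No array from d5 Glow on was above background.

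Pax1, a gene of pharyngeal endoderm and sclerotome, was above background on 8 arrays, of which 3 were d3 G- and 2 were d4 G-. The d3 arrays read 5.66, 5.63 and 5.31 in G- and 5.08, 5.00 and 5.20 in G+ cells. On d4 they read 5.90, 5.31 and 5.86 in G- and 4.83, 5.07 and 5.17 in G+ cells. The G+ arrays were lower in 9 of 9 pairs on each day. The log2 difference was -0.44 on d3 (limma adjusted p = 0.207) and -0.67 on d4 (limma adjusted p = 0.0158), and it was not called. When each array was scaled to the 75th percentile of its processed signal the d4 difference was -1.73 and was called (limma adjusted p = 0.00214). On d5, Glow cells (4.72, 4.86 and 4.93) and G- cells (4.71, 4.87 and 5.48) overlapped. Against ESC, Pax1 was higher in 0 of 9 pairs in both d6 groups. The log2 fold changes were -0.53 in G+H- (limma adjusted p = 0.0230) and -0.53 in G+H+ cells (limma adjusted p = 0.0211). Neither was called, though each was under 1 other setting. No array of ESC or d6 was above background.

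Between the populations sorted on d3, d4 or d5, no Pax gene was called by limma. The shares of all genes called were 1.72% on d3, 2.27% on d4, 0.718% for d5 Glow against G- and 0.258% for d5 Ghigh against Glow. At an unadjusted p under 0.05 there were 1, 2, 0 and 0 of 8 Pax genes, beside 19.0%, 20.7%, 14.2% and 11.1% of all genes. Whether the d3 and d4 differences of Pax1 differ from that of d5 was not tested.

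Pax7, a gene of dorsal neural and muscle progenitors, rose in the GSC-expressing cells. It was not above background on the ESC arrays (4.99, 5.30 and 5.21), and its first group with 3 of 3 arrays above background was d4 G+, at 5.74, 5.70 and 5.62. The d5 Ghigh arrays read 6.27, 6.44 and 6.64, those of d6 G+H- 7.91, 6.90 and 6.49, and those of d6 G+H+ 8.16, 7.21 and 6.74. Each of these groups lay wholly above ESC. Pax7 was called higher than in ESC in d6 G+H- cells, by at least 3.82-fold (log2 fold change 1.93, SE 0.372, limma adjusted p = 0.000106), and in d6 G+H+ cells, by at least 4.61-fold (2.21, SE 0.372, limma adjusted p = 1.39e-05). It was the 1 Pax gene of 8 called higher in either, where 5.10% and 5.80% of all genes were. In d5 Ghigh cells the log2 fold change was 1.28 (limma adjusted p = 0.0108).

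The G+ cells of d4 had more Pax7 than the G- cells of that day (5.10, 5.15 and 5.33) in 9 of 9 pairs of arrays, and so did Glow against G- cells of d5 (5.18, 5.47 and 5.38) and Ghigh against Glow cells. These steps of 0.49, 0.46 and 0.64 had limma adjusted p values of 0.727, 0.908 and 0.672. The step from d5 Ghigh to d6 G+H- was 0.65 (limma adjusted p = 0.430). There 0 of 8 Pax genes and 2.14% of all genes were called, and 2 of 8 and 24.4% had an unadjusted p under 0.05. On the slides of replicates 1 and 2 the difference between d6 G+H+ and ESC was 2.54, and on those of replicate 3 it was 1.53. With a normexp offset of 50 the log2 fold changes were 1.24 for G+H- and 1.45 for G+H+ cells, too small for a call.

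Pax9, the partner of Pax1 in pharyngeal endoderm, was the latest Pax gene to appear. From ESC to d5 Ghigh all 27 arrays read between 4.18 and 4.95 and none was above background. The d6 G+H- arrays read 5.87, 4.65 and 5.59, with replicate 2 still below background, and the d6 G+H+ arrays read 6.54, 5.85 and 6.02. In d6 G+H+ cells Pax9 was at least 2.28-fold higher than in ESC, with a measured log2 fold change just under the size of a call (1.495, SE 0.228, limma adjusted p = 2.82e-06). It passed that size with quantile normalisation within each series (1.56), and without any 1 of 4 arrays, ESC replicate 2 or 3 (1.52 each) or d6 G+H+ replicate 2 (1.64) or 3 (1.55). In d6 G+H- cells the log2 fold change was 0.73 (limma adjusted p = 0.0161). The dimmer Pax9 probe had a mean of 4.61 for G+H+, 4.65 for G+H- and 4.21 for ESC arrays. It was not above background in these groups and was no higher with HHEX than without. The rise of Pax9 above background on this day therefore rests on 1 probe.

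No gene at all was called between d6 G+H+ and d6 G+H- cells by limma (0% of all genes). An unadjusted p under 0.05 was reached there by 5.92% of all genes and by 1 of 8 Pax genes, Pax9, with a difference of 0.77 that was positive in 8 of 9 pairs of arrays (limma adjusted p = 0.576).

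Pax3, a gene of dorsal neural tube, neural crest and muscle progenitors, was measured above background throughout and varied most between replicates, with a median SD within groups of 0.443 against 0.151 to 0.335 for the other 7 genes. In ESC it read 6.41, 7.32 and 5.79, in d3 G- cells 7.80, 5.95 and 6.09, and in d4 G- cells 6.41, 8.22 and 6.31. The d2 arrays were alike at 6.09, 5.94 and 5.99. The highest array belonged to replicate 1 at d3 and to replicate 2 in ESC and d4 G- cells, all of them on the slides of replicates 1 and 2. In d5 Ghigh (6.73, against 5.45 and 6.00) and d6 G+H+ cells it was replicate 3, which was lowest in 6 of 11 untreated groups. Over the untreated groups Pax3 had a mean of 6.84 in replicates 1 and 2 and of 6.35 in replicate 3, and the part of the slides in this was not tested. The second Pax3 probe, an average of 10 spots, moved with the first on the same arrays, with a correlation of 0.946 over the 42 arrays and of 0.874 for deviations from the group means. Both probes were hybridised with the same RNA.

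At d6 the G+H- arrays of Pax3 read 7.70, 7.40 and 7.07, and the G+H+ arrays 8.15, 7.69 and 8.36. All G+H+ arrays lay above the highest ESC array, whereas replicate 3 of G+H- lay below it. The log2 fold change of d6 G+H+ against ESC was 1.56 (SE 0.467, limma adjusted p = 0.0108), which narrowly missed the call. That of d6 G+H- was 0.88 (limma adjusted p = 0.211). With slide as a random block the first was 1.67 and was called (limma adjusted p = 0.00421), as it was with slide as a fixed block (1.79) and without ESC replicate 2 (1.97).

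Pax2 and Pax5, which act with Pax8 in the midbrain, kidney and B cell lineages, passed no test. The group means of Pax2 lay between 5.26 and 5.86 and those of Pax5 between 4.72 and 5.41, and neither had a limma adjusted p under 0.05 in any comparison. Replicate 3, which had its own slides, was the lowest array in 10 of 11 untreated groups for Pax2 and in 11 of 11 for Pax5, with means over these groups of 5.44 for Pax2 and 4.92 for Pax5, against 5.80 and 5.49 in replicates 1 and 2. For Pax8 it was lowest in 0 of 11. The 2 Pax5 probes had a correlation of -0.52 over the 42 arrays, against 0.38 for Pax2, 0.23 for Pax6 and 0.78 for Pax9.

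**Figure D2:**
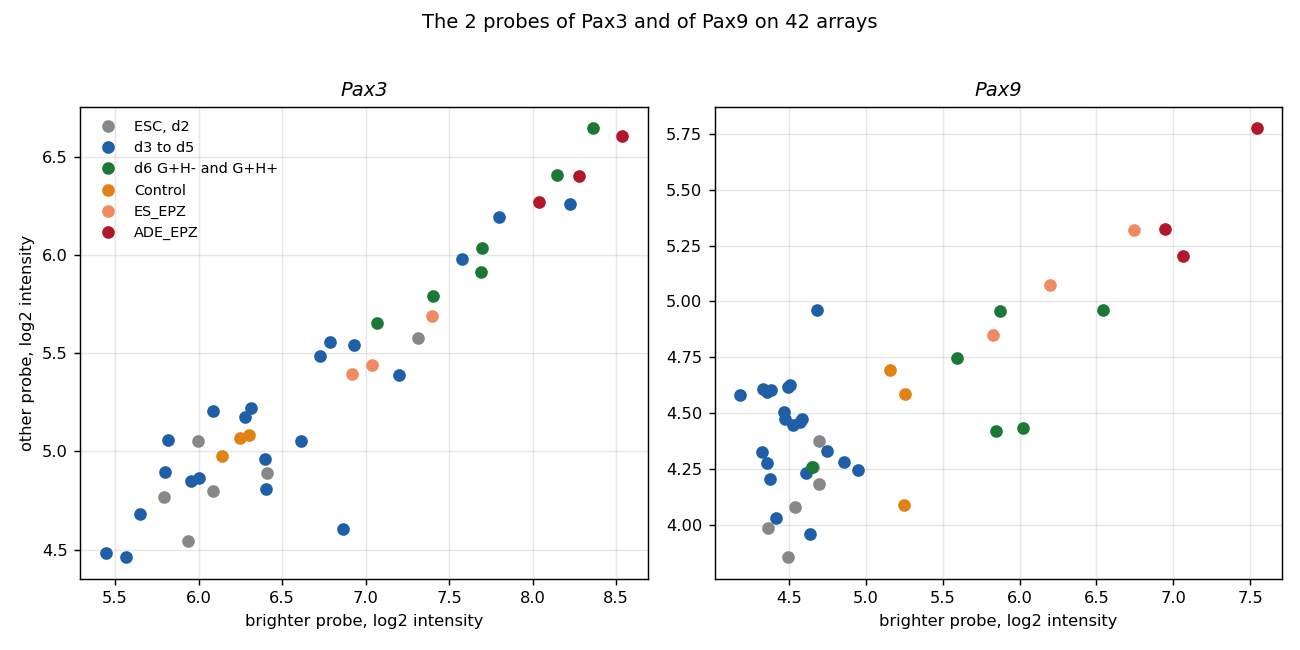
Log2 intensity of the brighter probe (horizontal axis) and of the other probe (vertical axis) of Pax3 (left) and Pax9 (right) on each of the 42 arrays, coloured by stage or regimen. The 2 Pax3 probes rise together over the whole range (correlation 0.946), and those of Pax9 do so mainly in the EPZ6438 regimens (0.777).

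The effect of PRC2 inhibition was measured against DMSO cultures of the same day. ADE_EPZ raised Pax9 and Pax3, 2 of 8 Pax genes, where 1.93% of all genes were called higher, and lowered none. ES_EPZ gave no call among the Pax genes, and 0.404% of all genes were called. There 3 of 8 Pax genes and 18.6% of all genes had an unadjusted p under 0.05. Both comparisons use the same 3 Control arrays. No sort is named for these cultures.

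Pax9 was not above background on the Control arrays (5.25, 5.15 and 5.25). With EPZ6438 during differentiation it read 7.06, 6.94 and 7.54, and with EPZ6438 before differentiation 6.20, 5.83 and 6.74, and all 6 arrays lay above the Control arrays. In ADE_EPZ it was called higher by at least 3.90-fold (log2 fold change 1.96, SE 0.228, limma adjusted p = 1e-06). The difference was 2.39, 1.81 and 1.69 within the 3 slides. In ES_EPZ the log2 fold change was 1.04 (SE 0.228, limma adjusted p = 0.0127) and 1.59, 0.95 and 0.57 within the same slides. With an offset of 50 the ADE_EPZ change was 1.26, below the size for a call. The dimmer Pax9 probe read 5.43 in ADE_EPZ, 5.08 in ES_EPZ and 4.46 in Control, with 1, 1 and 0 arrays above background.

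Pax3 read 6.14, 6.30 and 6.25 on the Control arrays, 8.28, 8.54 and 8.04 in ADE_EPZ and 7.04, 6.92 and 7.40 in ES_EPZ, so that the 3 regimens did not overlap. The log2 fold change in ADE_EPZ was 2.05 (SE 0.467, limma adjusted p = 0.00281), and 1.74, 2.03 and 2.40 within the slides. The regimens were tight, but the spread of Pax3 in the untreated groups enters the same fit. The call was lost without ADE_EPZ replicate 1 (limma adjusted p = 0.0118), ADE_EPZ replicate 2 (0.0171), Control replicate 1 (0.0144) or Control replicate 3 (0.0123). These log2 fold changes ran from 1.93 to 2.06, and the cause of the losses was not tested. With all arrays kept, the call held in 11 of 11 other normalisations or fits (limma adjusted p from 0.000375 to 0.00668). In ES_EPZ the log2 fold change was 0.89 (limma adjusted p = 0.451), and at least 0.78 within every slide. The second Pax3 probe read 5.04 in Control, 6.43 in ADE_EPZ and 5.51 in ES_EPZ.

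Pax7 read 5.36, 6.02 and 5.88 in Control, 6.08, 6.40 and 7.36 in ADE_EPZ and 6.53, 5.83 and 8.14 in ES_EPZ. The ADE_EPZ arrays were above Control in 9 of 9 pairs and the ES_EPZ arrays in 7 of 9. The log2 fold changes were 0.86 (SE 0.372, limma adjusted p = 0.164) and 1.08 (SE 0.372, limma adjusted p = 0.145), neither of them called. Within the slides they were 1.34, 0.20 and 1.04 in ADE_EPZ and 2.12, 0.65 and 0.47 in ES_EPZ, and the highest value of both regimens came from 1 slide.

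**Figure D3:**
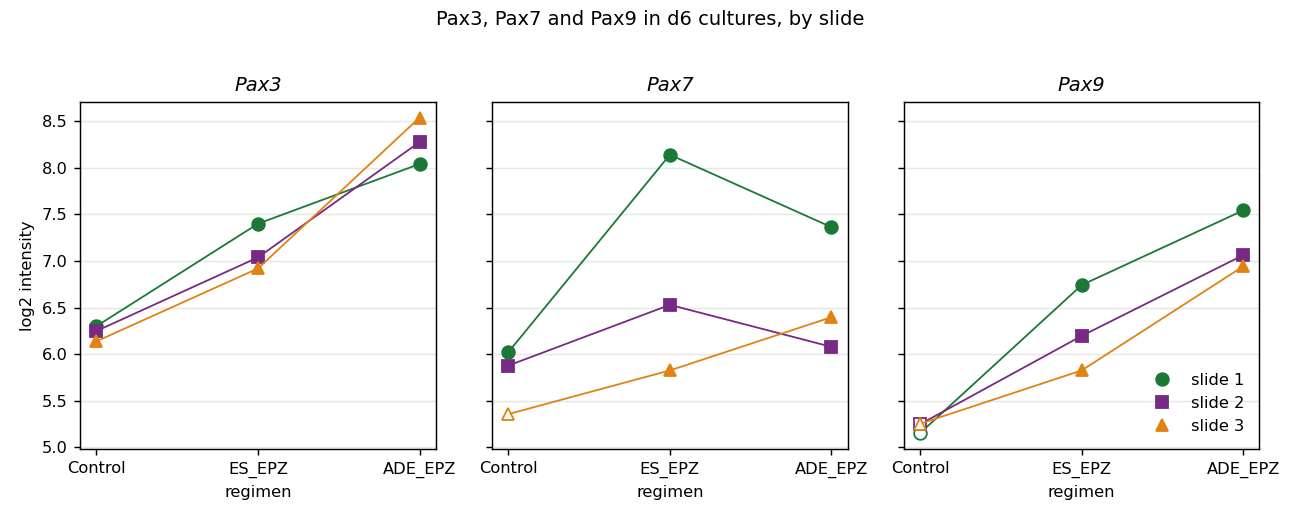
Log2 intensity (vertical axis) of Pax3, Pax7 and Pax9 in the d6 cultures of the 3 regimens (horizontal axis), with a line for each of the 3 slides, filled points where the probe was well above background and open points where it was not. Pax3 and Pax9 rise from Control to ES_EPZ to ADE_EPZ on every slide, and Pax7 differs between slides.

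Between the regimens, ADE_EPZ against ES_EPZ, no Pax gene and 0.131% of all genes were called. There 3 of 8 Pax genes and 12.9% of all genes had an unadjusted p under 0.05. The difference was 0.93 for Pax9 (limma adjusted p = 0.0482), 1.17 for Pax3 (limma adjusted p = 0.372) and -0.43 for Pax8 (limma adjusted p = 0.368). Pax9 and Pax3 were higher in ADE_EPZ in 9 of 9 pairs of arrays. Pax1, Pax5, Pax6 and Pax8 were not above background on any array of the 3 regimens.

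**Figure D4:**
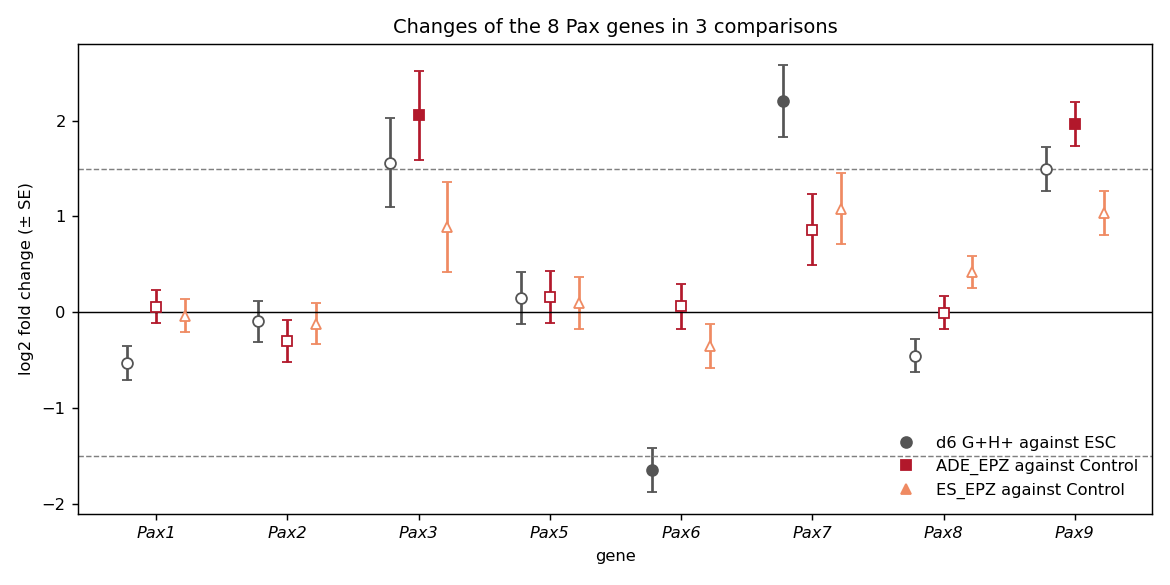
Log2 fold change of the 8 Pax genes (vertical axis, bars are SE from the limma fit) in d6 G+H+ against ESC, ADE_EPZ against Control and ES_EPZ against Control, with filled points for calls and dashed lines at 1.5 in either direction. Pax6 (-1.65) and Pax7 (2.21) are called in d6 G+H+ cells, and Pax3 (2.05) and Pax9 (1.96) in ADE_EPZ.

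Among the genes followed to check the samples, Hhex, Zfp42 and Mixl1 were called in ADE_EPZ and Mixl1 alone in ES_EPZ. The reporter gene Gsc was called in neither. Hhex, which marks ADE, rose in ADE_EPZ by 2.27 (limma adjusted p = 0.000182), from a mean of 10.15 to 12.41, and Mixl1, a primitive streak gene, fell by 3.30 (limma adjusted p = 1.55e-07) and by 1.70 in ES_EPZ (limma adjusted p = 0.00592). The stem cell gene Zfp42 rose in ADE_EPZ by 1.51 (limma adjusted p = 0.00227). The part of a shift in cell types in the Pax changes was not tested. The summed intensity of 10 markers of neural crest and dorsal ectoderm, a tissue known for Pax3 and Pax7, was 13.58 to 13.86 on the log2 scale on the Control arrays and 11.43 to 12.23 in ADE_EPZ, and 8 to 9 of the 10 markers were above background in either. That of 11 markers of paraxial mesoderm and somite was 10.35 to 10.86 in Control and 9.75 to 10.36 in ADE_EPZ. Other sums were higher in ADE_EPZ: that of 12 genes of foregut and pharyngeal endoderm, a site of Pax9, was 12.51 to 12.60 in Control and 13.39 to 13.62 in ADE_EPZ, with 6 to 10 and 8 to 10 genes above background. That of 17 neural plate genes was 14.79 to 14.96 in Control and 15.69 to 15.90 in ADE_EPZ. In ES_EPZ the 4 sums were 12.004 to 13.10, 10.06 to 10.30, 12.83 to 13.01 and 15.53 to 15.98, in the same order. The sums were taken on the linear scale, so the brightest genes weigh most. The median log2 fold changes of the 4 lists in ADE_EPZ against Control were -0.32, 0.05, 0.13 and 0.11. For paraxial mesoderm and somite the median did not fall with the sum.

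Pax proteins work with the families of Six2, Eya1 and Dach1, transcription factors and cofactors that form a shared network. In d6 G+H+ cells against ESC, 4 of its 12 genes were called higher and 0 lower, with a median log2 fold change of 0.43 beside 0.00 over all genes, of which 5.80% were called higher and 5.29% lower. The cofactor Eya2 rose by 5.49 (limma adjusted p = 3.65e-12), Six2 by 3.92 and Eya4 by 2.52. In ADE_EPZ against Control the median was 0.07. Eya4 rose by 2.03 (limma adjusted p = 5.5e-06) and Eya2 by 1.69, and the corepressor Dach1 fell by 2.41 (limma adjusted p = 2.62e-07). In ES_EPZ 0 of 12 were called by limma, and Eya4 (1.19) and Dach1 (-1.06) had adjusted p values of 0.0162 and 0.0231. Of 6 cofactors that bind Pax proteins none was called in these 3 comparisons.

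Foregut and pharyngeal endoderm, a site of Pax1 and Pax9, was followed by 12 genes. In d6 G+H+ cells 2 were called higher, the pioneer factor Foxa1 (5.93) and the pharyngeal regulator Tbx1 (4.601), and 1 lower, Sox2 (-6.70), which is also a stem cell gene. In ADE_EPZ Tbx1 rose by 2.95 (limma adjusted p = 7.79e-06), and in ES_EPZ it rose by 2.10 (limma adjusted p = 0.00485). The medians of the 12 were 0.22, 0.13 and -0.03 in these comparisons.

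Of 17 neural plate genes, among which are partners of Pax6, 7 were called higher and 2 lower in d6 G+H+ cells, beside 5.80% and 5.29% of all genes, with Rax (6.47), Irx3 (5.77) and Gbx2 (-5.28) the most changed. Rax rose in ADE_EPZ by 3.02 (limma adjusted p = 2.47e-05) and in ES_EPZ by 2.77 (limma adjusted p = 0.000988), and Irx3 rose in ADE_EPZ by 1.91. Of 10 genes of neural crest and dorsal ectoderm, Sox9 was called higher (3.03) and Foxd3 lower (-3.92) in d6 G+H+ cells, and Msx2 fell in ADE_EPZ by 3.45 (limma adjusted p = 0.000419).

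Of 11 genes of paraxial mesoderm and somite, Tbx6 was called higher (1.70) and Tcf15 lower (-6.80) in d6 G+H+ cells, and Meox1 fell in ADE_EPZ by 2.41 (limma adjusted p = 0.000226). Of 10 genes of intermediate mesoderm and kidney, a site of Pax2 and Pax8, Lhx1 (7.10) and Gata3 (4.25) were called higher in d6 G+H+ cells, and Wt1 fell in ADE_EPZ by 2.19 (limma adjusted p = 0.000173). Of 8 B lymphocyte genes, beside Pax5, Ebf1 (-3.68) and Blnk (-1.72) were called lower in d6 G+H+ cells. Of 7 thyroid genes, beside Pax8, Hhex alone was called there (5.16).

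The neighbours of Pax9 in the RefSeq order of GRCm38.p6 are Nkx2-9 and Slc25a21. Nkx2-9 was called lower than ESC in G+H- (-1.75, limma adjusted p = 0.00279) and G+H+ cells of d6 (-1.60, limma adjusted p = 0.00585), where the changes of Pax9 were 0.73 and 1.495. Against Control, Nkx2-9 was higher in 9 of 9 pairs of arrays in ADE_EPZ (1.44, limma adjusted p = 0.0309) and in ES_EPZ (0.89, limma adjusted p = 0.406), in the direction of Pax9, and was not called. Slc25a21 differed by 0.60 in ADE_EPZ and by 0.48 in d6 G+H+ cells, and was not called. Pax1 lies next to Foxa2, which rose by 8.30 in d6 G+H+ cells (limma adjusted p = 1.5e-12) while Pax1 was not above background on any array of that group. Slf2, next to Pax2, was called lower in ADE_EPZ against Control (-1.75, limma adjusted p = 0.00985). These neighbours were singled out after their values were seen.

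For the Pax genes that were above background on 3 arrays of a group, the genes with the most similar pattern were found by the correlation over the 14 group means among 15479 genes, as a description. Pax9 was most like Rarres1 (0.980), Lbp (0.976) and Kcne3 (0.973), and Pax7 like Stfa1 (0.986), Cstdc5 (0.983) and Vps37c (0.978), of which Stfa1 and Cstdc5 belong to 1 family of similar sequence. Pax3 was most like Slc9a7 (0.972), Syne2 (0.940) and Nfe2l3 (0.936), and Pax6 like Gm4984 (0.964), Naa11 (0.960) and Cyct (0.952). Pax8 was most like Gm15706 (0.943), AW209491 (0.940) and Mrpl17 (0.939), Pax1 like Slc30a2 (0.972), Pcsk2 (0.966) and Mab21l4 (0.943), and Pax2, whose means hardly varied, like Lce1m (0.931), Cd27 (0.915) and Fam219aos (0.905). Among the Pax genes themselves the highest correlations over the 14 means were those of Pax3 with Pax9 (0.814), Pax7 with Pax9 (0.751), Pax2 with Pax5 (0.735) and Pax6 with Pax8 (0.728). The groups of 1 series share slides.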

How the data were processed

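RNA of 42 samples was hybridised to Agilent 1-colour arrays with 62976 spots. The authors deposited scanner intensity values (Feature Extraction 11.0.1.1 and 12.0.1.1, annotation mm9, per the file headers) and a normalised log2 table. The log2 values were recomputed here from the intensities with limma 3.58.1 in R 4.3.3, by normexp with an offset of 10 and quantile normalisation over all arrays, and the correlation of each array, rounded, was 0.99998 or higher with its deposited log2 column. Control and outlier-marked spots were left out and spots of a probe averaged, giving 55681 probes. Of 22201 RefSeq accessions 21850 were named.

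A mean per group was fitted to all arrays with lmFit and eBayes, and p values were adjusted by Benjamini-Hochberg over all probes. A probe was well above background where over 50% of its spots were so marked. For "at least" folds, values of a dim group below the lowest signal well above background on their array were raised to that signal. Where no value lay below it, as for Pax7 in ESC and Pax9 in Control, the bound is the measured fold. Spread between arrays alone sets the p values. Same-numbered replicates deviated together, with every correlation over 0.1, in 12 of 21 comparisons. Genes named outside the Pax family were those called in either EPZ6438 comparison, the 3 most changed of each list in d6 G+H+ cells, and the 3 most similar in pattern. Some genes that this rule names are not reported here. The Pax genes, the lists and the tests were chosen with earlier results of these data known. The scripts were tested on simulated data.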

Additional observations from a re-analysis of the deposited data

How the results depend on the processing

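Counts of called Pax genes were recomputed under 12 other settings and without each array in turn. No log2 fold change that was followed (those with a limma adjusted p of at most 0.05, or an unadjusted p under 0.05 for the EPZ6438 comparisons) reversed. With a normexp offset of 50 no Pax gene was called against ESC in any group (0 in each), nor against d2 (0), and 1 was called in ADE_EPZ. With no background correction 0 were called against ESC from d3 G+ to d6 G+H-, 1 for d6 G+H+, and 0 against d2. Scaling to the 75th percentile gave 1 call at d2, 2 for d5 Ghigh, 4 for d6 G+H+, 1 in d4 G+ against G-, 0 in d3 G- against d2 and 2 in d3 G+ against d2. Fitting only the 2 groups compared gave 0 in d5 Glow. The cause of these shifts was not tested. Leaving out 1 array moved the count between 0 and 1 in d3 G-, 0 and 1 in d5 Glow, 1 and 2 for d6 G+H-, 2 and 4 for d6 G+H+, and 1 and 2 in ADE_EPZ. The 4 came without ESC replicate 2. Of the Pax genes, 5 were well above background on 11 or fewer of 42 arrays, where signal over background limits the measured folds.

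With the replicate number as a block the count of called Pax genes was 3 in d6 G+H+ against ESC, where Pax3 was added (1.56, limma adjusted p = 0.00801), and 2 in ADE_EPZ and 0 in ES_EPZ against Control. In these 3 comparisons not every correlation of same-numbered arrays passed 0.1. They ran from -0.054 to 0.441 in d6 G+H+ against ESC, from 0.070 to 0.171 in ADE_EPZ and from -0.070 to 0.146 in ES_EPZ against Control. The value of 0.441 was that of replicate 3. The block changed no other count.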
